A study of Drosophila melanogaster with 4 samples.

Results

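The genes considered here encode 8 nuclear receptors of the ecdysone response of Drosophila: EcR, usp, Eip75B, Eip78C, Hr3, Hr4, Hr39 and ftz-f1. The rule that names them is this role and uses no measured value, although earlier results of these data were known when they were chosen. They are 8 of the 13945 protein-coding genes annotated on the chromosome arms. The assay for HDAC3 was CUT&Tag, in which an antibody against a chromatin protein directs a transposase to cut and tag the DNA around it. It was applied to nuclei of pooled whole embryos collected 2 to 4 h after egg laying. In the first round, embryos of the white-eyed laboratory strain w1118 were profiled with a rat and with a rabbit antibody against HDAC3, and in the second round w1118 embryos and HDAC3 shRNA embryos were profiled with the rat antibody. The HDAC3 shRNA embryos came from mothers in which a germline driver, tub-Gal4 (an alpha-tubulin promoter fused to GAL4-VP16), expressed a hairpin against HDAC3 mRNA, so the depletion starts from the egg and is not confined to a cell type. The w1118 embryos carried neither the driver nor the hairpin, and the effects of strain and of depletion cannot be told apart. Each combination of round, genotype and antibody was 1 library, so no difference between groups could be set against replicate error and all values below are descriptions. A peak was assigned to a gene when it overlapped the gene body or lay within 2000 bp of it.

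Ecdysone is the steroid hormone that times moulting and metamorphosis in insects. Its receptor is a heterodimer of EcR and Ultraspiracle, the product of usp, and without hormone EcR binds the corepressor SMRTER (gene Smr), the fly relative of NCoR and SMRT, which activates and tethers the histone deacetylase HDAC3. With hormone the receptor turns on a cascade in which many of the induced genes are themselves nuclear receptors: Eip75B and Eip78C, relatives of vertebrate Rev-erb, then Hr3, a relative of ROR, with Hr4 and Hr39, and later ftz-f1, a relative of SF-1. The hormone pulse of the embryo comes in mid-embryogenesis, after the stage sampled here, whereas EcR, usp and ftz-f1 products are already supplied by the mother. In the young embryo the maternal Ftz-F1 protein acts with the homeodomain protein Ftz in segmentation.

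The 4 peak lists held 6258 peaks (first-round rat), 3645 (rabbit), 1142 (second-round rat, w1118) and 102 (HDAC3 shRNA), of which 6129, 3448, 1038 and 18 lay on the chromosome arms. The number of reads behind each list is unknown, and the median fold enrichment of a peak over its local background was 3.72, 3.86, 3.73 and 4.65, respectively. Fold enrichment is therefore given with its rank, the percentage of peaks in the same list with an equal or lower value, and is not compared between lists. Joining overlapping peaks of the lists gave 61 sites at the 8 genes. Of these, 13 were occupied in all 3 w1118 lists, 12 in a pair of lists and 36 in a single list, 32 of them in the first-round rat list. The same count of sites was not made over the arms, so these numbers have no background beside them.

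Sequences are shown for 6 of the sites occupied in all 3 w1118 lists, because these are the positions at which the occupancy described below was found with both antibodies and in both rounds. They are the strongest sites of ftz-f1 and of Hr4 and the sites at an annotated start of Eip75B and Hr39. Each is the stretch common to the peaks of the 3 lists, or its central 300 bases or exon-free part, read 5′ to 3′ on the strand of the gene from the RefSeq copy of the dm6 assembly. Capitals mark GAGAG, the core of GAGA factor binding sites, or AGGTCA, the core hexamer that nuclear receptors recognise, on either strand. The 6 sites shown do not give the share of sites with either motif. Of the other Eip75B sites occupied in all 3 w1118 lists, the common stretch 9.63 kb downstream of the start of transcript RC held GAGAG but not AGGTCA. The common stretch 5.03 kb upstream of that start held neither. The ftz-f1 site 3 sequence covers chr3L:18759169-18759463 and that of ftz-f1 site 6 covers chr3L:18771630-18771929, both on the minus strand and intronic. The Hr4 sequences cover chrX:1976029-1976301 and chrX:1995581-1995872 on the plus strand, both intronic. The Eip75B sequence, chr3L:17999822-17999966 on the minus strand, ends at the base before the start of transcript RC, and the Hr39 sequence, chr2L:21237579-21237878 on the plus strand, lies in an intron just downstream of the start.
ftz-f1 site 3: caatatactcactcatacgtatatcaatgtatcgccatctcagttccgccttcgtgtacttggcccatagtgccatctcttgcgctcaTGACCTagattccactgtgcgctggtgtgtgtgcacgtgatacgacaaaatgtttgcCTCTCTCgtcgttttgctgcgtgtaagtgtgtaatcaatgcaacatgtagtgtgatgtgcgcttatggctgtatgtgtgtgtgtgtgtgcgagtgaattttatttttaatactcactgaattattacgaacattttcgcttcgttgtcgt
ftz-f1 site 6: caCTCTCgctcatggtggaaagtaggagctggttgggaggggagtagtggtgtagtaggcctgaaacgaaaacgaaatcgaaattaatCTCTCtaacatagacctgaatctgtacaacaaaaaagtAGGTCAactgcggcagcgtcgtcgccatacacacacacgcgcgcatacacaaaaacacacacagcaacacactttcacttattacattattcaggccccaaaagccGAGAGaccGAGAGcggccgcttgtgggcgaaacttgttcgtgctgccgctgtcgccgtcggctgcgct
Hr4 site 7: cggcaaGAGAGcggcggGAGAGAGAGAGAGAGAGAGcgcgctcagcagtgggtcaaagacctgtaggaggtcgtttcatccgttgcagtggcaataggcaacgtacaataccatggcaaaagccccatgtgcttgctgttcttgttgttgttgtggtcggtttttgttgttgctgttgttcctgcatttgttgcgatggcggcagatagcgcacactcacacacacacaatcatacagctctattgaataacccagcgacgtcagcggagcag
Hr4 site 10: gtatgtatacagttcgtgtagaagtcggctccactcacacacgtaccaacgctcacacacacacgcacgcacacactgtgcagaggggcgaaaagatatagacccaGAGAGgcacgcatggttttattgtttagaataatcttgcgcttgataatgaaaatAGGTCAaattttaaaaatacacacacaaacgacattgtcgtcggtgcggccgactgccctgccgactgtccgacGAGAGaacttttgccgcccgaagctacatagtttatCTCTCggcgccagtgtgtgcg
Eip75B site 10: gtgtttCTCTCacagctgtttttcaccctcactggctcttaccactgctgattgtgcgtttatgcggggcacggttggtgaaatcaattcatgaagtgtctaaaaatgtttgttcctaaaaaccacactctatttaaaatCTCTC
Hr39 site 1: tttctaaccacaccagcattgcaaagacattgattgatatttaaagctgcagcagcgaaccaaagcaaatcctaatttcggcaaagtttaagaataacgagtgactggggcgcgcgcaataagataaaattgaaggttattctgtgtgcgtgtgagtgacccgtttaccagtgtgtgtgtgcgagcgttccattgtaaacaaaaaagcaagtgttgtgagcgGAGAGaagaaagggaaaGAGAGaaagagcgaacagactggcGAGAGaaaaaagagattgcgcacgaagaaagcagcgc

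Peaks were found at most of the 8 genes in each w1118 list and at none in the HDAC3 shRNA list. In the first-round rat list all 8 genes had a peak, beside 44.0% of protein-coding genes. The rabbit list had a peak at 7 of the 8, all but Eip78C, beside 37.2% of genes, and the second-round rat list at 6 of the 8, all but usp and Eip78C, beside 9.95%. With HDAC3 shRNA it was 0 of the 8, beside 0.179%. Long genes offer more room for peaks, and 7 of the 8, all but usp, belong to the 1013 genes of 20 kb or more. Among those 7, the genes with a peak numbered 7 in the first-round rat list beside 72.2% of long genes, 6 in the rabbit list beside 56.6%, 6 in the second-round rat list beside 29.7% and 0 in the HDAC3 shRNA list beside 0.494%. A first-round rat peak that overlapped a rabbit peak, called shared below, was present at 7 of the 8 genes beside 26.9% of all genes, and at 6 of the 7 long ones beside 48.5%. These counts include usp only through a downstream peak at the start of its neighbour Actn. With gene bodies alone, 7 genes had a first-round rat peak, 6 a rabbit peak and 6 a shared peak. The share of all genes was not computed for gene bodies alone. Many of the peaks at the 8 genes were near the calling threshold. With a −log10 q of at least 3, a peak remained at 4 of the 8 genes in the rabbit list and at 3 in the second-round rat list. The share of all genes at that cut was not computed, so these counts cannot be set beside a background.

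The peaks were also dense along these genes. The windows of the 8 genes span 443 kb and held 57 first-round rat peaks, or 12.9 per 100 kb, beside 4.17 in the windows of long genes and 4.58 over the chromosome arms. They held 25 rabbit peaks, or 5.65 per 100 kb, beside 1.87 and 2.58, and 17 second-round rat peaks, or 3.84 per 100 kb, beside 0.763 and 0.775. When each list was limited to its strongest 1142 peaks, 14 first-round rat and 7 rabbit peaks lay at these genes, beside the 17 of the second-round rat list. Densities of the shortened lists in long genes and over the arms were not computed. Whether the higher density holds at equal list size is therefore not known. In the first-round rat list Hr3 had the densest peaks, at 16.1 per 100 kb, a value above that of 96.5% of the long genes, followed by Eip75B (15.3, above 95.4%) and Hr4 (14.3, above 93.7%). The lowest of the 7 long genes in that list, Eip78C, had 9.11 per 100 kb, above 80.5%. The order of these 7 genes differed in the rabbit list, where Hr39 and Hr3 were densest (11.4 and 10.7 per 100 kb, above 98.6% and 97.9% of long genes), Eip75B had 2.55 per 100 kb, above 61.5%, and Eip78C had none. Among the 7 in the second-round rat list, Hr3 (8.03 per 100 kb, above 99.0%) and ftz-f1 (7.31, above 98.5%) were densest. These values rest on 3 and 4 peaks. The median of long genes in that list was 0 per 100 kb, and a single peak placed Hr39 above 92.4%. Hr3 ranked high among long genes in each w1118 list, while the place of Eip75B differed between the lists.

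**Figure D1:**
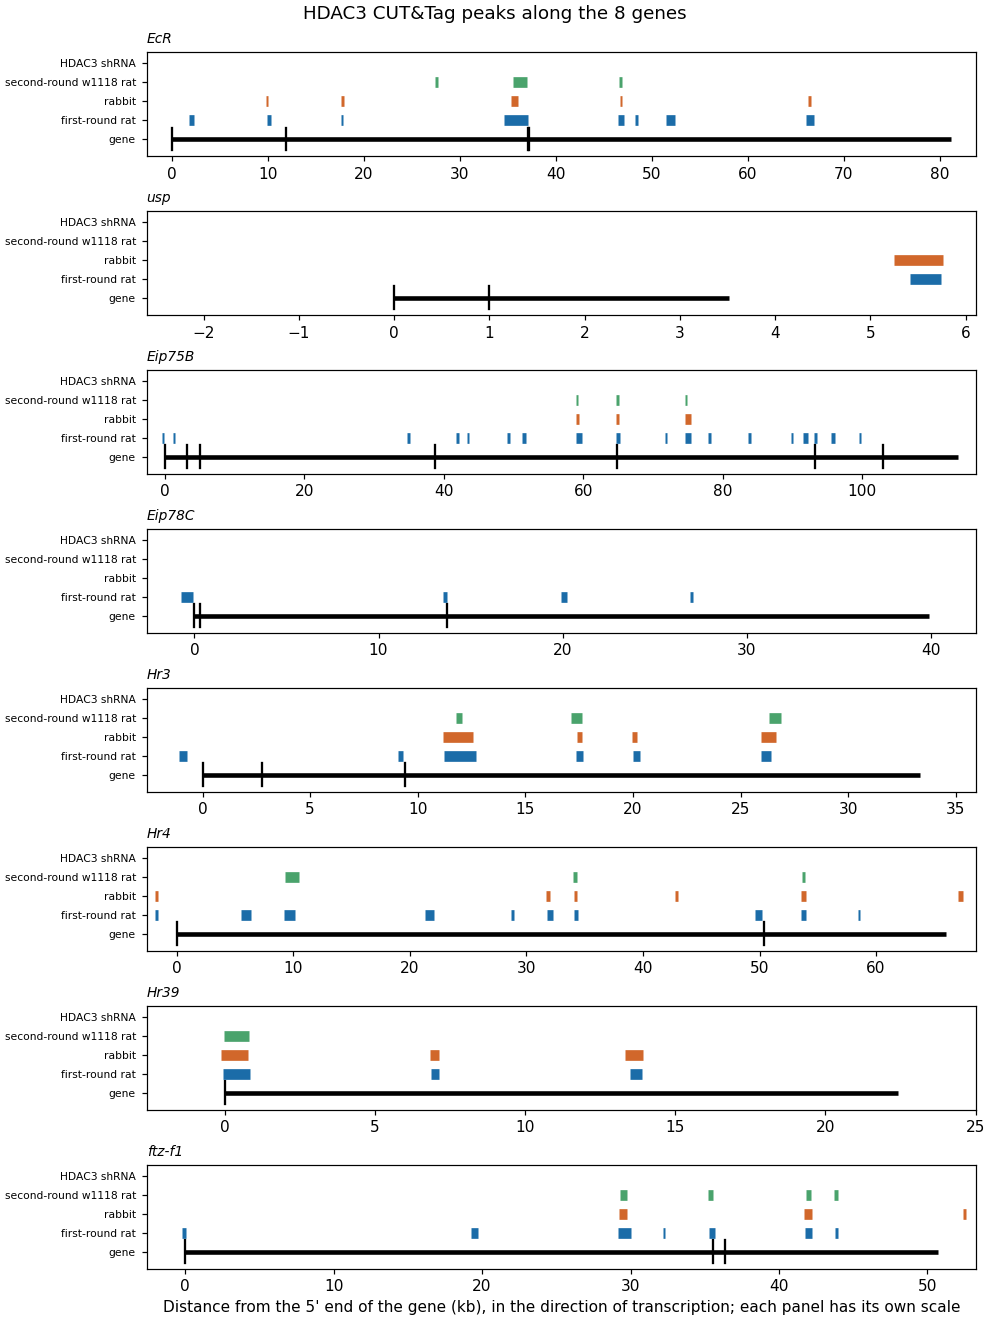
Positions of the peaks of the 4 lists (coloured bars) along each of the 8 genes (black line, with annotated starts as vertical ticks), as distance in kb from the 5′ end of the gene in the direction of transcription. Peaks spread along the bodies of the long genes, most sites have a peak in the first-round rat list only, and the HDAC3 shRNA row is empty in all 8 panels.

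In fold enrichment the peaks at these genes were spread over the whole range of each list. The median rank was 52.5 for the 57 first-round rat peaks, 34.4 for the 25 rabbit peaks and 66.2 for the 17 second-round rat peaks. Fold enrichment ran from 2.40 to 7.74 in the first-round rat list, from 3.27 to 6.23 in the rabbit list and from 3.23 to 4.92 in the second-round rat list. Of the first-round rat peaks 10 ranked in the highest 10% of the list and 6 in the lowest 10%. The genes thus had many peaks, but the typical peak was not a strong one. The 13 sites occupied in all 3 w1118 lists ranked from 65.5 to 98.1 in the first-round rat list, with a median of 91.9. The other 44 sites of that list ranked from 0.463 to 98.3, with a median of 38.9. This contrast was not computed over the arms, where 81.9% of first-round rat peaks in the highest 10% overlapped a rabbit peak. In the rabbit list the same 13 sites ranked from 16.4 to 94.6 (median 54.3).

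**Figure D2:**
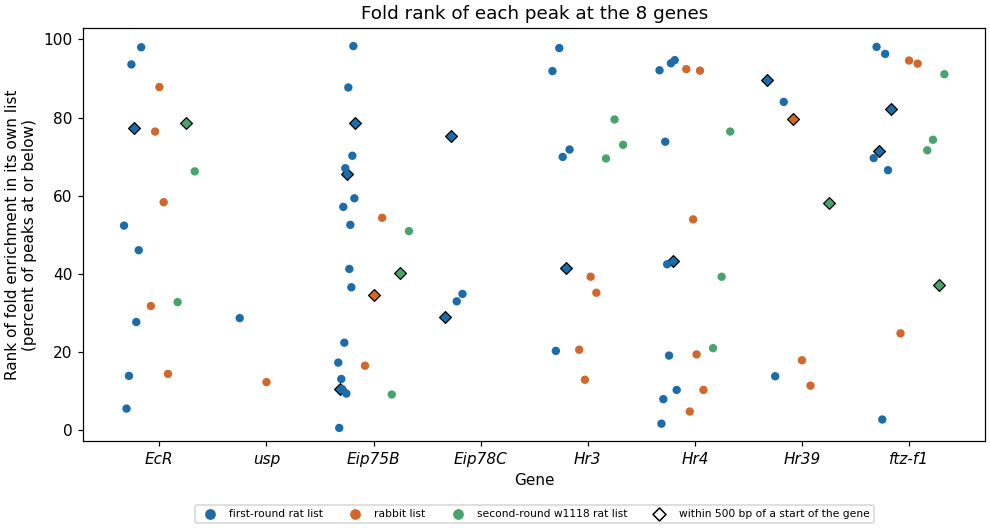
Rank of fold enrichment within its own list (vertical axis, percentage of peaks at or below) for each peak at the 8 genes (horizontal axis), coloured by w1118 list; black-edged diamonds are peaks within 500 bp of an annotated start of the gene. The highest first-round rat peaks, at Eip75B, ftz-f1, EcR and Hr3, rank at 97.8 to 98.3 and are circles, away from a start.

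Occupancy lay mostly away from the starts of protein-coding genes. Starts of non-coding genes were not counted here, and some peaks lay at one, such as those of an Hr3 site at lncRNA:CR46322. Of the 57 first-round rat peaks 14 (24.6%) were within 500 bp of a start of any protein-coding gene, beside 46.0% of all peaks in that list and 36.3% of those in the windows of long genes. The rabbit list gave 6 of 25 (24.0%) beside 66.7% and 54.1%, and the second-round rat list 4 of 17 (23.5%) beside 54.9% and 52.6%. The middles of 50 of the 57, 20 of the 25 and 16 of the 17 peaks lay in introns of the 8 genes. In each list 1 lay in their 5′ UTR sequence, at the RC start of Eip75B, and none lay in their coding sequence. Exons of neighbouring and overlapping genes were not considered. The same shares were not computed over the arms or in long genes, so these counts have no background beside them. The lists differed in how often a start of the 8 genes themselves was occupied. A peak within 500 bp of an own start was found at 7 of the 8 genes in the first-round rat list, beside 24.9% of all genes, at 2 in the rabbit list, beside 22.9%, at 4 in the second-round rat list, beside 5.07%, and at 0 in the HDAC3 shRNA list, beside 0.0645%. By shared peaks it was 3 of the 8, beside 16.5%. When a peak had to cover the start itself, the first-round rat count fell to 3 genes.

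The 8 genes have 25 annotated starts. In the first-round rat list 13 of them had a peak within 500 bp, beside 24.5% of the 19607 starts on the arms, in the rabbit list 2, beside 22.1%, and in the second-round rat list 5, beside 4.85%. The pair found with the rabbit antibody, the single start of Hr39 and the RC start of Eip75B, was also covered by a peak in both rat lists. The other rat peaks at starts were those of EcR transcripts RB, RC and RG, Eip75B transcripts RF and RA, all 3 starts of Eip78C, the third start of Hr3, the second of Hr4, and the first and second of ftz-f1. Neighbouring starts can share a peak, as do starts 3 and 4 of EcR, at 6131922 and 6131841.

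**Figure D3:**
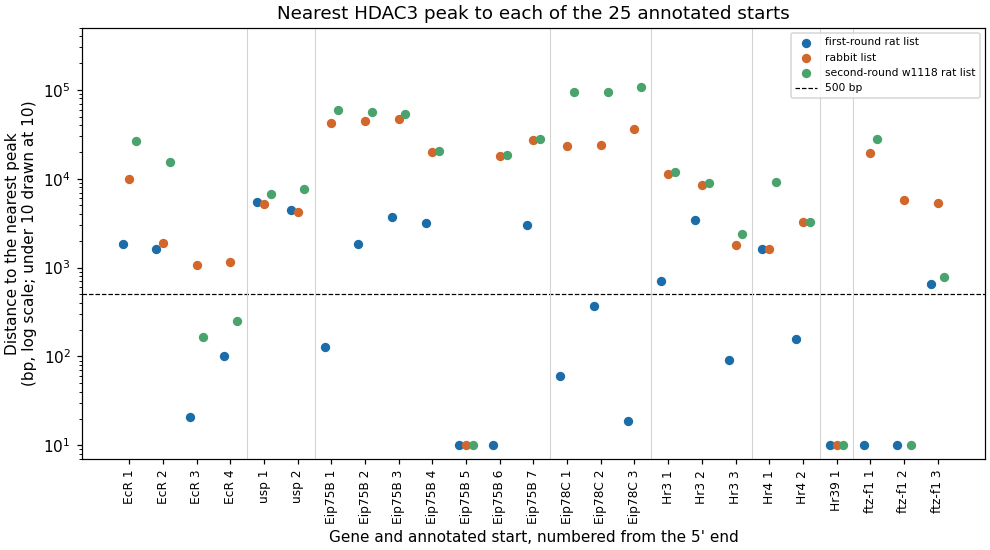
Distance in bp (log scale, values under 10 drawn at 10) from each of the 25 annotated starts, numbered from the 5′ end of each gene, to the nearest peak of each w1118 list; the dashed line marks 500 bp. Of the rabbit points only those of Eip75B start 5 and Hr39 start 1 lie below the line, compared with 13 first-round rat points.

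EcR, the hormone-binding subunit of the receptor, lies on chromosome 2R from 6087873 to 6169087 on the minus strand and has 4 starts. It had 8 first-round rat peaks, 5 rabbit peaks and 3 second-round rat peaks at 9 sites. The site occupied in all 3 w1118 lists that was closest to a start extended upstream from transcripts RB and RC, with fold enrichments of 4.55, 5.25 and 4.29 (ranks 77.3, 87.8 and 78.5). Its first-round rat peak, from 6131943 to 6134515, was 2573 bp wide and its edge lay 21 bp from the start at 6131922, while the rabbit peak lay 1061 bp upstream. The other such site, in an intron 9.27 kb downstream of the RG start, had fold enrichments of 6.01, 4.57 and 3.56 (ranks 93.6, 76.4 and 32.7). The strongest peak of the gene, from 6166798 to 6167229, was in the first-round rat list alone, with a fold enrichment of 7.57 (rank 98.0). It lies in an intron, 1.86 kb downstream of the RA start and 647 bp from the gene tRNA:Ile-AAT-1-1, which is nearer than any EcR start. Other non-coding genes were also nearer than an EcR start at 3 sites: tRNA:Arg-ACG-1-1, tRNA:Asn-GTT-1-1 and lncRNA:CR43904. At a further site in the 3′ part of EcR the nearest start was that of Ars2, 16552 bp away.

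The usp gene, which encodes the RXR-type partner of EcR, is short (chromosome X, 2038798 to 2042311, minus strand, 2 starts). It had no peak in its body or at its starts in any list. The peak assigned to it lay downstream and covered the start of the neighbouring gene Actn, which encodes alpha-actinin. Its fold enrichment was 3.37 in the first-round rat list (rank 28.6) and 3.36 in the rabbit list (rank 12.2), and the second-round rat list had none. The nearest first-round rat peak was 4420 bp from a usp start.

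Eip75B, whose haem-binding product represses Hr3-dependent transcription, had the most sites of the 8 genes. It lies on chromosome 3L from 17950953 to 18064696 on the minus strand and has 7 starts. The first-round rat list held 18 peaks there, the rabbit list 3 and the second-round rat list 3, and the 3 rabbit and 3 second-round rat peaks lay at the same 3 sites. At the RC start (17999821) fold enrichment was 4.10 in the first-round rat list, 3.62 in the rabbit list and 3.63 in the second-round rat list (ranks 65.5, 34.4 and 40.1). At 5.03 kb upstream of that start it was 5.26, 3.95 and 3.74 (ranks 87.7, 54.3 and 50.9), and in an intron 9.63 kb downstream it was 4.14, 3.40 and 3.23 (ranks 67.0, 16.4 and 9.02). None of these was the strongest peak of the gene. That one, from 18029565 to 18029917, had a fold enrichment of 7.74 (rank 98.3), the highest at the 8 genes in any list, and was 3.53 kb upstream of the RG start in the first-round rat list alone. The first-round rat list also held peaks 129 bp upstream of the RF start, at the 5′ end of the gene (4.61, rank 78.6), and over the RA start (3.13, rank 10.5). The lncRNA gene CR45921, inside Eip75B, had a start nearer than any Eip75B start at 3 sites.

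Eip78C, the other Rev-erb relative (chromosome 3L, 21226609 to 21266503, plus strand), had peaks in the first-round rat list only. They numbered 4, with fold enrichments of 3.37, 4.45, 3.42 and 3.45 (ranks 28.8, 75.2, 32.9 and 34.8) from 5′ to 3′. The first lay 60 bp upstream of the first start and the second 19 bp upstream of the third start, and the other pair lay in introns. The nearest rabbit peak was 23448 bp from a start of the gene. The last of the 4 peaks was nearer to the start of CG43218, at 4329 bp, than to one of Eip78C.

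Hr3, the ROR relative that activates ftz-f1, is on chromosome 2R from 10203995 to 10237348 on the minus strand. It had 3 sites occupied in all 3 w1118 lists, as many as Eip75B in a gene of 33.4 kb compared with 114 kb, and all 3 lay in introns downstream of start 3. The middle site, 7.96 kb from that start, had the highest values, with fold enrichments of 7.41, 3.69 and 4.34 in the first-round rat, rabbit and second-round rat lists (ranks 97.8, 39.2 and 79.5). The site next to it on the 5′ side had 4.24, 3.63 and 4.16 (ranks 69.9, 35.1 and 73.0), and that on the 3′ side 5.73, 3.45 and 4.09 (ranks 91.9, 20.5 and 69.5). The start shared by CG46321 and transcripts RA, RF and RH of Hr3 (10227957) had a first-round rat peak 91 bp upstream (3.55, rank 41.4), and the nearest rabbit and second-round rat peaks were 1776 and 2382 bp away. Other genes overlap this locus. CG12912 overlaps all 5 sites inside the gene and CG46321 overlaps 4 of them, the 3′ site reaches the start of lncRNA:CR46322, and a first-round rat peak 715 bp upstream of Hr3 covers the start of lncRNA:CR45265 and overlaps Hdc. The lncRNA:CR46322 start was also the nearest one to the intronic site with fold enrichments of 3.26 (first-round rat) and 3.37 (rabbit).

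Hr4, a receptor that acts with Hr3 in the prepupal switch, lies on chromosome X from 1941940 to 2007956 on the plus strand and has 2 starts. It had 10 first-round rat, 6 rabbit and 3 second-round rat peaks. The highest values within the gene were at the site whose sequence, with an AGGTCA, is given above (Hr4 site 10), 3.24 kb downstream of the second start. Fold enrichment there was 6.29 in the first-round rat list, 5.77 in the rabbit list and 4.24 in the second-round rat list (ranks 94.7, 92.0 and 76.4). At Hr4 site 7, 15.9 kb upstream of the second start and with a run of overlapping GAGAG, it was 6.07, 3.95 and 3.61 (ranks 93.9, 53.9 and 39.2). The peak upstream of the gene, with 5.76 and 5.83 in the first-round rat and rabbit lists, belongs by position to its neighbours, since it lay 1620 bp from the Hr4 start and covered a start of CG3587 in the first-round rat list and of CG3857 in the rabbit list. A rabbit peak downstream of the gene covered the start of PIG-K. The second start of Hr4 had a first-round rat peak 158 bp upstream (3.58, rank 43.2), and the first start had no peak within 500 bp in any list. At 3 intronic sites CR46447 had the nearest start.

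Hr39, a paralogue of ftz-f1 required in the female reproductive tract, is the shortest of the long genes here (chromosome 2L, 21237250 to 21259675, plus strand) and has a single start. A peak covered that start in all 3 w1118 lists, with fold enrichments of 5.44, 4.70 and 3.84 (ranks 89.5, 79.6 and 58.1) in the first-round rat, rabbit and second-round rat lists. The peaks were 905, 924 and 838 bp wide and extended into the intron from which the sequence above is taken. A further pair of sites in introns, 6.87 and 13.5 kb downstream of the start, was found with both antibodies of the first round. Fold enrichment there was 3.17 (rat) and 3.41 (rabbit), then 4.96 and 3.35. All 3 first-round rat peaks at this gene were shared with the rabbit list. For the last site the start of l(2)k14505 was nearer than that of Hr39, and for the one before it that of an unnamed annotated transcript, FBtr0445491_df_nrg.

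The ftz-f1 gene lies on chromosome 3L from 18750607 to 18801309 on the minus strand and has 3 starts. Among sites of the 8 genes found with both antibodies, its site 3 had the highest fold enrichment in the first-round rat and rabbit lists. The gene had 7 first-round rat, 3 rabbit and 4 second-round rat peaks. At ftz-f1 site 3, in an intron 5.37 kb downstream of the third start, fold enrichment was 7.59 in the first-round rat list, 6.23 in the rabbit list and 4.18 in the second-round rat list (ranks 98.1, 94.6 and 74.3). At ftz-f1 site 6, in an intron 5.51 kb upstream of the second start, it was 6.68, 6.04 and 4.92 (ranks 96.3, 93.8 and 91.1). Site 3 was the highest of the 8 genes in the rabbit list and site 6 the highest in the second-round rat list. The starts were occupied in the rat lists only. The 5′ start had a peak in the first-round rat list (4.81, rank 82.1), where it also covers the start of lncRNA:CR45939, and the second start had one in both rat lists (4.30 and 3.59, ranks 71.3 and 37.0). The remaining rabbit peak lay downstream of the gene, 23 bp from the start of Atg3. The start of lncRNA:CR45938 was nearer than one of ftz-f1 at site 3 and at the site beside it.

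Overlaps between lists at these genes were set beside those over the arms. A rabbit peak overlapped 22 of the 57 first-round rat peaks (38.6%, beside 40.2% of that list), and a first-round rat peak overlapped 22 of the 25 rabbit peaks (88.0%, beside 71.0%). Between the rounds, 16 of the 57 first-round rat peaks overlapped a second-round rat peak (28.1%, beside 16.3%) and 16 of the 17 second-round rat peaks overlapped a first-round one (94.1%, beside 91.9%). Of those 17, 13 overlapped a rabbit peak (76.5%, beside 73.8%). The shares of the second-round list were near the background. Of the 10 first-round rat peaks in the highest 10% of the list, 8 overlapped a rabbit peak, beside 81.9% of such peaks, and 7 a second-round rat peak, beside 45.3%. The exceptions with the rabbit antibody were the strongest sites of Eip75B and EcR.

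None of the 17 second-round w1118 peaks at these genes overlapped a peak of the HDAC3 shRNA list, beside 1.45% of the peaks of the w1118 list. Taking 3 counts in 17 as a rough limit, a count of 0 allows a share of up to 17.6%. This treats the peaks as independent, although they come from 1 library and several lie in the same gene. The limit covers counting of peaks only. The HDAC3 shRNA list held just 18 peaks on the arms, so the absence at these genes is shared with nearly the whole genome. The closest HDAC3 shRNA peak to a start of the 8 genes was 171247 bp from the third start of Hr3. The depth of this library is unknown, and its part in the count was not tested.

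Matches to 5 motifs were sought, in either orientation, in the 300 bases around the middle of each peak. The letters were GAGAG (GAGA factor), CAGGTAG (the early activator Zelda), AGGTCA (the nuclear receptor core), TCAAGGTCA (the extended site of Ftz-F1-type receptors, which contains AGGTCA) and TATCGATA (DREF). AGGTCA was found in 14 of the 57 first-round rat peaks (24.6%), beside 8.71% of the list, in 5 of 25 rabbit peaks (20.0%), beside 6.96%, and in 5 of 17 second-round rat peaks (29.4%), beside 7.42%. Against peaks of long genes away from a start it was 13 of 43 (30.2%, beside 10.6%), 5 of 19 (26.3%, beside 7.28%) and 5 of 13 (38.5%, beside 11.7%). These are descriptions of few peaks, and overlapping peaks of the 3 lists share their sequence. By site, 15 of the 61 held the hexamer in the window of at least 1 list: 4 in Eip75B, 3 each in EcR and ftz-f1, 2 each in Hr3 and Hr4 and 1 in Hr39. Of the sequences shown above, ftz-f1 sites 3 and 6 and Hr4 site 10 held it in every w1118 list, and Hr4 site 7 held none. It was in 0 of the 25 windows from 250 bases before to 50 after a start of the 8 genes, beside 5.68% of all such windows. A match of these letters does not show that a receptor is bound.

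GAGAG was in 39 of the 57 first-round rat peaks (68.4%), beside 46.4%, in 17 of the 25 rabbit peaks (68.0%), beside 44.8%, and in 13 of the 17 second-round rat peaks (76.5%), beside 52.3%. Against peaks of long genes away from a start it was 28 of 43 (65.1%, beside 48.7%), 14 of 19 (73.7%, beside 55.2%) and 10 of 13 (76.9%, beside 51.3%). It was also in 16 of the 25 start windows (64.0%), beside 33.1%. CAGGTAG was in 2 of the 57 first-round rat peaks, beside 7.16%, and in none of the rabbit or second-round rat peaks, beside 4.67% and 6.07%. TCAAGGTCA and TATCGATA had no match in any peak at these genes, beside 0.131% and 1.78% of the first-round rat peaks.

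**Figure D4:**
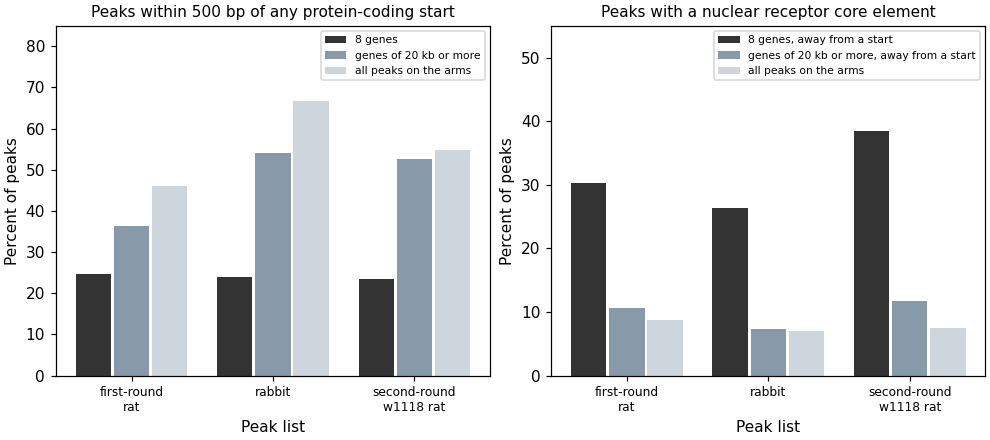
Percentage of peaks (bars, from 0) within 500 bp of any protein-coding start (left) and, among peaks farther than 500 bp from a start, with the nuclear receptor core element (right), in the 3 w1118 lists, for the 8 genes, for genes of 20 kb or more and for all peaks on the arms (right panel: all peaks at any distance). At the 8 genes 24.6, 24.0 and 23.5% of peaks were at a start and 30.2, 26.3 and 38.5% of those away from one held the element; the bars carry no error because each list is 1 library.

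Other genes of the pathway were counted from 4 lists. Of 9 genes of ecdysone synthesis and breakdown 6 had a first-round rat peak, 4 a rabbit peak, 0 a second-round rat peak and 3 a shared peak. The shared peaks were at the synthesis genes phm (named phtm in the annotation), sad and sro, with first-round rat fold enrichments of 5.90, 5.75 and 3.63 and rabbit values of 5.45, 3.84 and 3.60. Of 11 other ecdysone-response genes 9, 7 and 3 had a peak in the first-round rat, rabbit and second-round rat lists and 7 had a shared one. Among them were the Ets-family gene Eip74EF (6.17 and 4.89), the zinc finger gene Kr-h1 (5.99 and 5.59) and ImpL2, which encodes a secreted insulin-binding protein (4.30 and 3.57). The strongest shared peaks of Eip74EF and Kr-h1 were 13943 and 2083 bp from the nearest start of the gene.

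Of 13 other nuclear receptor genes 10 had a first-round rat peak, 10 a rabbit peak, 3 a second-round rat peak and 9 a shared peak. The strongest were at svp, a COUP-TF relative (8.90 and 5.74 in the first-round rat and rabbit lists), tll, a terminal gap gene (5.70 and 6.01), and knrl, a relative of knirps (5.24 in both). All 3 of these peaks covered a start of the gene. Of 7 coregulator genes 6, 5 and 3 had a peak in the 3 w1118 lists and 5 had a shared one. The strongest were at tai, which encodes a coactivator of the ecdysone receptor (6.35 and 3.99), at Smr itself (5.96 and 5.56), and at trr, which encodes a histone methyltransferase that EcR recruits (4.96 and 5.55). Each covered a start, that of Smr together with asRNA:CR45623, and the trr peak also lay 54 bp from a start of mRpL16. Smr had 8, 3 and 2 peaks in the first-round rat, rabbit and second-round rat lists and HDAC3 had none. In HDAC3 shRNA embryos no gene of these 4 lists had a peak. These counts stand beside 44.0, 37.2 and 9.95% of all protein-coding genes with a peak in the 3 w1118 lists and 26.9% with a shared peak.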

How the data were processed

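HDAC3 CUT&Tag peaks were taken from 4 libraries of embryos collected 2 to 4 h after egg laying. According to the methods and the submitters' processing notes, the authors used Trim Galore for adaptor removal, Bowtie2 for alignment to dm6 and MACS2 for peaks of each library. Versions, calling options, a control library and the treatment of reads with several positions are not given in the sources used here. The fold enrichment the authors deposited is a ratio to local background, and the authors also deposited −log10 p-value and −log10 q-value columns. The score the authors deposited, 10 times −log10 q truncated, was not used. The files hold no read numbers, so depth is unknown. A different depth or calling threshold would change the number of peaks, so equal-sized and stricter lists were tried.

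Gene models were those of Ensembl release 115 without transposable element genes, on the chromosome arms, and sequence came from RefSeq for that assembly. Peaks were assigned within 2000 bp of a gene body, were at a start within 500 bp of it, overlapped from 1 bp, and were placed by their middle. Python 3.11.15, numpy 2.4.6, pandas 2.3.3 and matplotlib 3.10.9 were used, and the overlap functions were tested on simulated data. Peaks of a list are not replicates and no tests were run. All 8 genes and Smr were named, with the 3 genes of each pathway list with the highest fold enrichment at a shared peak, and genes with a start nearer to a peak. The 8 genes and the lists were chosen with earlier results of these data known. The names phm, Eip71CD and Eip55E were matched as phtm, MsrA and Cth. Sequence from 2R was not printed. Alternatives were a −log10 q of at least 3, gene windows of 0 and 5000 bp, start windows of 0 and 1000 bp, 50% reciprocal overlap, the strongest 1142 peaks of each list, RefSeq gene models and leaving out either w1118 rat library.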

Additional observations from a re-analysis of the deposited data

How the results depend on the processing

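Of 70 recomputed values 55 stayed within 1.5 times the reported count, or, for a rank, within its 95% exact binomial interval, and 15 moved. Only values of the 8 genes were recomputed, so no share over all genes stands beside them. With only peaks of a −log10 q of at least 3, the rabbit list kept 4 of the 8 genes, 7 peaks and 1 gene with a peak at a start, and the second-round rat list 3 genes, 3 peaks and 2 genes with a peak at a start. Shared peaks then remained at 4 genes. The highest ranks, taken again within the shortened lists, became 96.5 (first-round rat), 86.1 (rabbit) and 73.4 (second-round rat). The peaks that held these ranks passed the cut with the same fold enrichment, and removing weaker peaks lowers such a rank. With the strongest 1142 peaks of each list, the first-round rat list held 14 peaks at the 8 genes and the rabbit list 7 at 4 genes, with shared peaks at 4 genes, beside 17 peaks in the second-round rat list. When a peak had to cover the start, 3 genes had one in the first-round rat list. Leaving out either w1118 rat library, the genes with a peak in the w1118 rat data numbered 6 to 8 and those with a peak shared with the rabbit list 6 to 7. The counts of 0 in the HDAC3 shRNA list did not change under any alternative run, but several alternatives could not have changed them. A stricter q-value or a narrower window only removes peaks, and that list of 102 peaks is shorter than 1142. The second-round rat list itself holds 1142 peaks, so its values at that size were also fixed. Such values are among the 55 that stayed. Depth is unknown, so no lower limit of detection can be given for a gene without a peak. No paired analysis was possible because the groups share no more than 1 replicate number and no test was run.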
